A study of Homo sapiens with 9 samples.

Results

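HSP70 proteins of the cytosol and nucleus, and their larger HSP110 relatives, were followed at the transcript level in 293T cells after knockdown of DIS3, the catalytic exonuclease of the nuclear RNA exosome. The members were chosen by name: the 9 genes HSPA1A, HSPA1B, HSPA1L, HSPA2, HSPA4, HSPA4L, HSPA8, HSPA14 and HSPH1, out of 61853 genes in the deposited table. 293T cells, an established line derived from human embryonic kidney, express the SV40 large T antigen. The study used ribosomal RNA depleted total RNA, and its title names circular RNAs as its question. The control group is labelled Scramble (genotype WT, a scramble shRNA, 3 libraries), and the other group analysed is DIS3-sh1 (genotype DIS3 knockdown, DIS3-sh1 shRNA, 3 libraries). All 6 libraries come from the same line, and both groups received an shRNA. The time from shRNA delivery to harvest and the way of delivery are not given in the sources used here. The series text calls the replicates biological. A second shRNA group, DIS3-sh2, was not analysed here, because no column of the deposited table matched its labels. With 1 shRNA sequence, an effect of lowering DIS3 and an effect of that sequence cannot be told apart.

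HSP70 proteins bind short hydrophobic stretches of unfolded clients, and a cycle of ATP hydrolysis and nucleotide exchange locks and frees the client. J-domain proteins deliver clients and trigger hydrolysis, while HSP110 proteins, BAG proteins and HSPBP1 drive the exchange. HSPA8 (HSC70) is made constitutively in nearly all cells. HSPA1A and HSPA1B encode the stress-inducible HSP70 and are classical targets of the transcription factor HSF1, which binds heat shock elements, inverted repeats of the unit GAA.

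Of the 9 members, 8 had enough counts to be tested, and all 8 were lower in DIS3-sh1, with 0 higher. Among all 19591 tested genes, 32.6% were called lower, 34.5% higher and 67% in either direction (edgeR quasi-likelihood test, Benjamini-Hochberg adjusted p under 0.05). An estimated fall of at least 2-fold with an adjusted p under 0.05 was seen for 7 members, against 3.94% of tested genes. The 2-fold limit was applied to the estimate and was not itself tested. The median log2 fold change was -1.58 over the 8 tested members and 0.02 over all tested genes. The median over all genes depends on the scaling between libraries and was 0.10 with upper-quartile scaling. HSPA1B showed the largest fall of all tested genes and HSPA1A the third largest. The members were named with earlier results of these data known, so these counts describe them and are no independent evidence.

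DIS3 itself measured 175.8, 186.1 and 177.1 CPM (counts per 1000000 library counts, scaled by the TMM method) in Scramble and 26.6, 27.8 and 27.9 CPM in DIS3-sh1, a log2 fold change of -2.71 ± 0.04 (SE, adjusted p = 6.76e-30). Libraries held 19800892 to 23532148 counts. Of the markers listed for 293T, VIM, KRT18, NEFM, NEFL, INA and LIN28B were at 21.8 CPM or more in both group means. Of the 7, KRT8 went from 4.64 to 32.6 CPM (log2 fold change 2.81), INA from 49.6 to 21.8 CPM (-1.19) and LIN28B from 171.9 to 102.5 CPM (-0.75), and the other 4 had log2 fold changes between -0.25 and 0.28. The summed level of 9 markers of fibroblasts, leukocytes, endothelium and erythroid cells was 15.3 to 16.2 CPM in Scramble and 24.9 to 28.8 CPM in DIS3-sh1, nearly all of it COL1A1 (14.7 and 25.0 CPM), with CD3E and HBB at 0. The part of these marker differences in the results below was not tested. In bulk RNA, fewer cells that express a gene and less RNA per cell cannot be told apart.

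The promoters of 4 members that fell by more than 3-fold are shown first, because 2 of these genes are the classical heat-inducible pair, 1 is the constitutive gene, and 1 encodes the HSP110 partner. Each line gives the 250 bases before the RefSeq transcript start (GRCh38.p14), 5′ to 3′ on the gene's strand. Capitals mark matches to the paired heat shock units GAANNTTC or TTCNNGAA, each of which is its own reverse complement. HSPA1A lies on the plus strand at chr6:31815293-31815542, HSPA1B on the plus strand at chr6:31827488-31827737, HSPA8 on the minus strand at chr11:123062137-123062386 and HSPH1 on the minus strand at chr13:31162389-31162638.
HSPA1A: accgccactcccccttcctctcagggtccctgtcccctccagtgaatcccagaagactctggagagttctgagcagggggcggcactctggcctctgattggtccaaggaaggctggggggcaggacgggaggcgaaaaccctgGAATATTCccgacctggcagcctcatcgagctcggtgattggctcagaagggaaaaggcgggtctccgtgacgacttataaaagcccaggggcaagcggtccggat
HSPA1B: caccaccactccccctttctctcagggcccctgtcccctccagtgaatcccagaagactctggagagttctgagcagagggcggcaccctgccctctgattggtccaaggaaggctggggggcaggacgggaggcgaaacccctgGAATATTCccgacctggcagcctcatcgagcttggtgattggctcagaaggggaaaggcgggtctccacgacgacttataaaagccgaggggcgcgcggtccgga
HSPA8: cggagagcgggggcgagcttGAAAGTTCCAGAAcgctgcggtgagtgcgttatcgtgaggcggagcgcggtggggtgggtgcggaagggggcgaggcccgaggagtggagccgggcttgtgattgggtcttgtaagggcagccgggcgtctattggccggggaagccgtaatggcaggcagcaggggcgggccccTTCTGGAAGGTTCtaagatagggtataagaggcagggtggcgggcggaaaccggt
HSPH1: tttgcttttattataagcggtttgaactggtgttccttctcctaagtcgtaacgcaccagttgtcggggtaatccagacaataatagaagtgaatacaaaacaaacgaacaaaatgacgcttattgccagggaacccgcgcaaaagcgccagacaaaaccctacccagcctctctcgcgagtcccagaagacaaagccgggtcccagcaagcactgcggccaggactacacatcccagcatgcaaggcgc

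The HSPA1A and HSPA1B windows each held 1 such pair, at positions -106 to -99 and -105 to -98 from the transcript start, and otherwise carried the same set of motifs: TATAAA, 2 CCAAT boxes and 1 GGGCGG. HSPA8 held 2 triple elements, in which a GAANNTTC and a TTCNNGAA overlap, at positions -230 to -218 and -55 to -43. The triple element was found in 0.49% of the 35116 RefSeq promoter windows of 300 bases (250 before and 50 after a start). At least 1 pair of either kind, triple elements included, was found in 13.5%. TATAAA was found in 11.5%, CCAAT in 34.6% and GGGCGG in 45.0% (each on either strand). In the HSPH1 window no match to these motifs was found. HSPA2 and HSPA4 had no heat shock pair in their windows, and HSPA4L had 1 TTCNNGAA in 3 windows. HSPA1L is read away from HSPA1A on the other strand, and its window overlaps the HSPA1A window and shares its heat shock pair. HSPA14 has no entry. A match describes letters only and says nothing of binding in these cells.

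**Figure D1:**
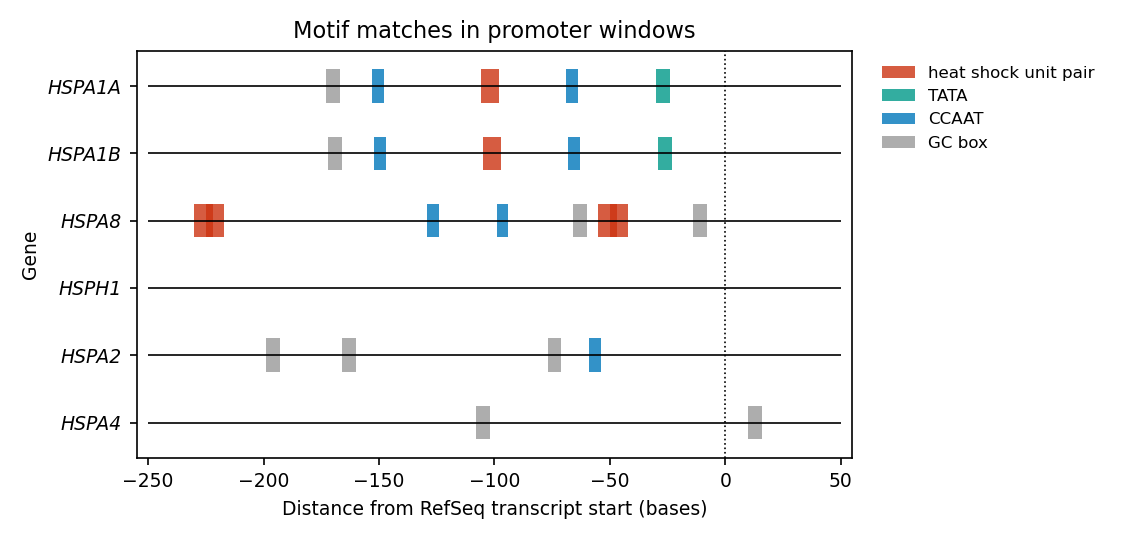
Motif matches in the promoter windows of 6 members, by distance in bases from the RefSeq transcript start (dotted line, position 0). Coloured blocks are matches on either strand; HSPA1A and HSPA1B share 1 layout, HSPA8 has 2 triple elements drawn as overlapping pairs, and HSPH1 has no block. HSPA1L and HSPA4L, which each have 1 heat shock pair in a window, are not drawn.

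The triple element was also looked up in the promoters of all genes with a window, HSPA8 included. Of 59 tested genes that hold it, 23 were lower (39.0%) and 18 higher, with a median log2 fold change of -0.14. Of all 11998 tested genes in the promoter table, 37.4% were lower, with a median of 0.01.

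The stress-inducible HSP70 genes fell to a few percent of their control level. HSPA1B (ENSG00000204388.7, chromosome 6, 31827735 to 31830255, a single exon in GENCODE 29) measured 41.1, 50.2 and 46.5 CPM in Scramble and 3.27, 2.47 and 3.27 CPM in DIS3-sh1. The groups lie far apart, and the spread within each is small beside the gap. Means were 45.9 ± 4.56 and 3.00 ± 0.46 CPM (SD, n = 3 each), a 15.1-fold lower level (log2 fold change -3.92 ± 0.10, adjusted p = 1.47e-24). HSPA1A (ENSG00000204389.10, chromosome 6, 31815464 to 31817946) measured 8.82, 10.95 and 10.64 CPM in Scramble and 0.94, 0.57 and 0.62 CPM in DIS3-sh1. Its 3 DIS3-sh1 libraries rest on 20, 11.5 and 13 counts, so that its fold change is less precise. HSPA1A was 13.9-fold lower (log2 fold change -3.80 ± 0.19, adjusted p = 9.25e-18).

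These genes encode nearly the same protein, and their values are not independent. The longest coding transcripts of HSPA1A and HSPA1B were 94.51% identical over 2403 aligned bases, and 67.1% of all 150-base windows of the HSPA1A transcript also occur in HSPA1B. How reads that fit both copies were assigned is not given in the sources used here. HSPA1A was at 0.214, 0.218 and 0.229 of the HSPA1B count in Scramble and at 0.288, 0.232 and 0.189 in DIS3-sh1, and these ranges overlap (exact permutation test, two-sided, p = 0.7). With both copies summed into 1 gene before the fit, the log2 fold change was -3.90 ± 0.10 (adjusted p = 8.92e-25). In GENCODE 29 an unnamed processed transcript, ENSG00000285565, overlaps HSPA1B. Its group means were 7.18 and 2.01 CPM (log2 fold change -1.83 ± 0.16, adjusted p = 1.47e-11), and reads of both cannot be told apart with certainty.

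HSPA1L, the testis-enriched gene beside them at 31809619 to 31815065, was at 0 counts in all 3 Scramble libraries, which allows up to 0.129 to 0.147 CPM (3 counts, counting error only). It had 0, 2 and 2 counts in DIS3-sh1, below that limit, so no fold is given and the gene was not tested.

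HSPA8, the constitutive HSP70 of the cytosol, lost more CPM than any other member. HSPA8 (ENSG00000109971.14, chromosome 11, 123057489 to 123063230) measured 1768, 1761 and 1719 CPM in Scramble and 438.2, 465.1 and 460.8 CPM in DIS3-sh1. Means were 1749 ± 26.2 and 454.7 ± 14.5 CPM, and DIS3-sh1 was at 26.0% of Scramble (log2 fold change -1.94 ± 0.02, adjusted p = 1.35e-32). The difference is many times the spread within either group. The genome holds many HSPA8 pseudogenes, 17 of them in the table, and their summed counts were 0.23% to 0.81% of the HSPA8 count in each library. With these counts added to HSPA8, the log2 fold change stayed at -1.94.

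HSPA8 introns host the box C/D snoRNA genes SNORD14C, SNORD14D and SNORD14E, whose products are trimmed by exonucleases after splicing. SNORD14E had 23, 36.5 and 17 counts in Scramble and 2, 7.5 and 6.5 in DIS3-sh1, and was the only 1 of the 3 with enough counts to be tested. It fell by 2.17 ± 0.44 on the log2 scale (adjusted p = 7.26e-05). The fold change of HSPA8 lies within 1 SE of that of SNORD14E. SNORD14D had 19, 10.5 and 11.3 counts in Scramble and 5, 3 and 1 in DIS3-sh1, with no overlap, while SNORD14C had 10, 3 and 6.33 against 3.83, 4 and 4.5, with overlap. SNORD14C and SNORD14D were named after their values were seen. All 3 lie inside HSPA8 on its strand, and reads of host and snoRNA cannot be told apart here.

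HSPA2, an HSP70 gene known for its role in spermatogenesis, was low throughout. It measured 4.996, 4.274 and 3.865 CPM in Scramble and 2.35, 2.15 and 1.67 CPM in DIS3-sh1, with no overlap. The log2 fold change was -1.10 ± 0.18 (adjusted p = 3.58e-06), resting on 79 to 116 counts per Scramble library and 35 to 50 per DIS3-sh1 library. HSPA14 encodes an atypical HSP70 that works with the J-domain protein DNAJC2 at the ribosome. It measured 63.5, 64.1 and 61.9 CPM in Scramble and 26.4, 27.2 and 27.5 CPM in DIS3-sh1 (log2 fold change -1.23 ± 0.05, adjusted p = 3.42e-19). The 2 groups of HSPA14 values are tight and do not overlap. MSANTD7 (ENSG00000284024.4), which GENCODE 29 also lists under the name HSPA14 and which overlaps its first part on the same strand, fell less, from 74.1 ± 2.36 to 52.4 ± 2.40 CPM (log2 fold change -0.50 ± 0.05), and shared reads may be split between them.

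The 3 HSP110 genes fell by unequal amounts. HSPH1 (HSP105), a heat-inducible exchange factor, measured 400.1, 398.0 and 403.6 CPM in Scramble and 92.0, 97.2 and 100.1 CPM in DIS3-sh1. Its mean fell to 24.1% of Scramble (log2 fold change -2.05 ± 0.03, adjusted p = 2.87e-30). HSPA4 (APG2), the constitutive HSP110, measured 403.6, 413.8 and 404.8 CPM in Scramble and 192.0, 195.7 and 204.7 CPM in DIS3-sh1. HSPA4 thus fell to 48.5% (log2 fold change -1.04 ± 0.03, adjusted p = 4.6e-24), from a Scramble CPM level that HSPH1 nearly shares. HSPA4L (APG1) measured 230.0, 241.6 and 237.5 CPM in Scramble and 152.6, 159.6 and 160.2 CPM in DIS3-sh1. HSPA4L showed the smallest fall of the 8 tested members, to 66.6% (log2 fold change -0.59 ± 0.03, adjusted p = 9.24e-17). For none of the 3 did the groups overlap, and non-overlap in the lower direction was found for all 8 tested members and for 34.2% of tested genes.

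**Figure D2:**
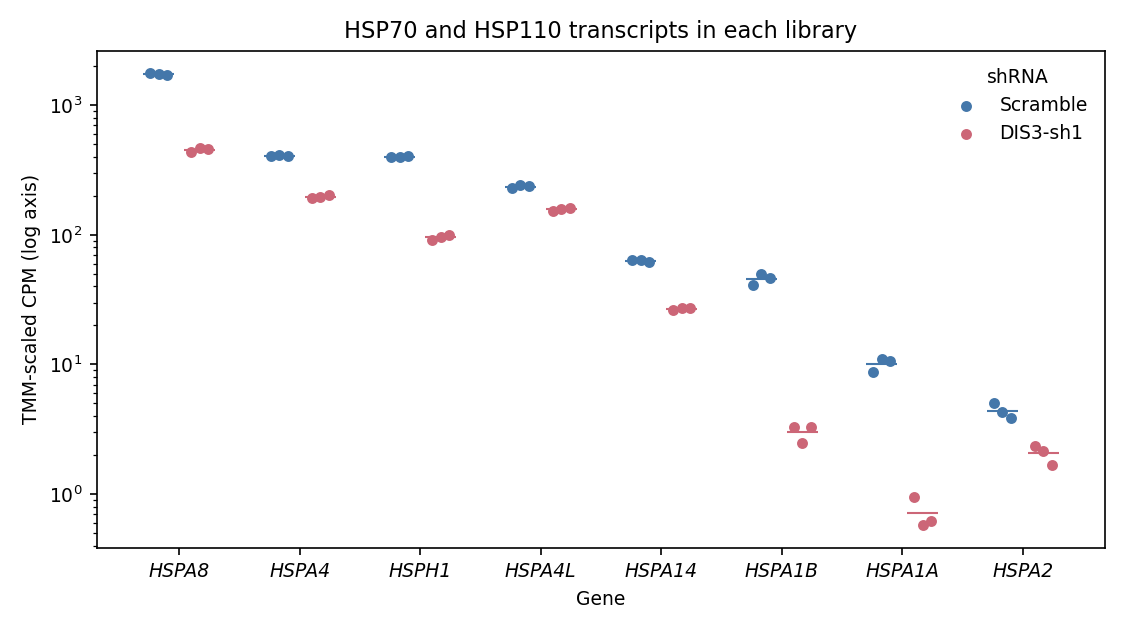
TMM-scaled CPM of the 8 tested members in each library (log axis), with the 3 Scramble libraries in blue, the 3 DIS3-sh1 libraries in red and group means as short lines. In all 8 genes the DIS3-sh1 points lie below the Scramble points; HSPA1B drops from 45.9 to 3.00 CPM and HSPA4L from 236.4 to 157.5 CPM.

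**Figure D3:**
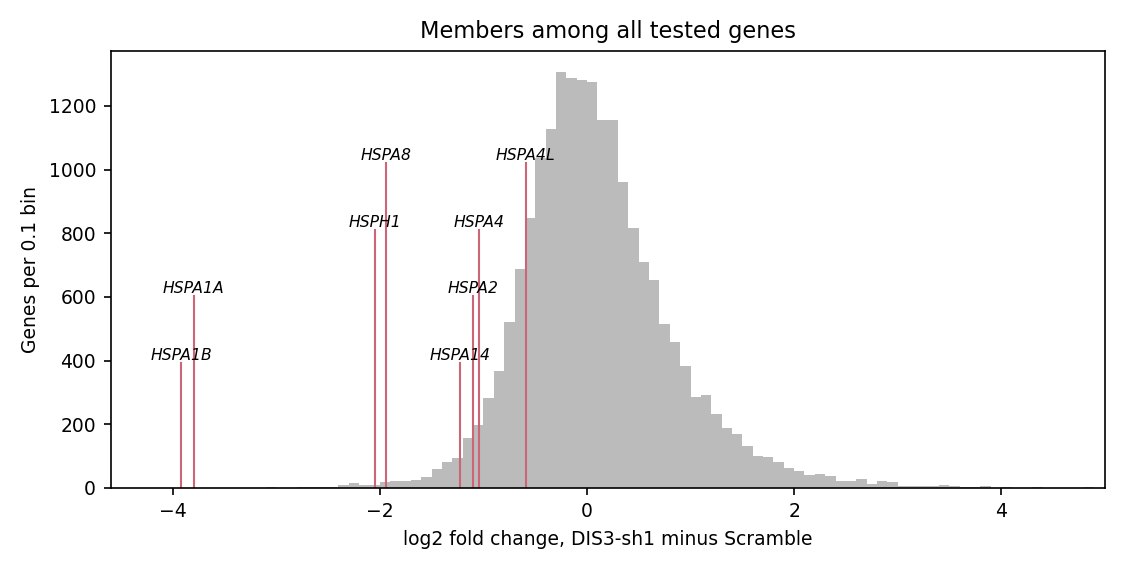
Distribution of log2 fold changes (DIS3-sh1 minus Scramble) over the 19591 tested genes in bins of 0.1, with vertical lines at the 8 tested members. The horizontal axis is cut at its upper end and leaves out the bins centred at 5.25, 5.95 and 6.85, with 1 gene each. HSPA1B (-3.92) and HSPA1A (-3.80) lie at the lower end of the distribution and HSPA4L (-0.59) inside its left flank.

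Ratios within a library do not depend on the scaling between libraries. With 3 libraries against 3, the smallest p that an exact permutation test can give is 0.1, and p-values were adjusted over 6 ratios chosen after the values were seen. HSPA1A and HSPA1B together were at 0.0282, 0.0347 and 0.0332 of the HSPA8 count in Scramble and at 0.00961, 0.00654 and 0.00844 in DIS3-sh1 (log2 difference -1.98, exact p = 0.1, adjusted 0.12). The inducible copies were thus lower against HSPA8 in every DIS3-sh1 library than in any Scramble library. HSPA4 over HSPA8 went from 0.233 ± 0.0040 to 0.434 ± 0.012 (SD, n = 3 each; log2 difference 0.90, exact p = 0.1). HSPA4L over HSPA4 went from 0.580 ± 0.0090 to 0.798 ± 0.017 (log2 difference 0.46, exact p = 0.1). HSPA14 over HSPA8 was above the Scramble range in all 3 DIS3-sh1 libraries, with means of 0.0361 and 0.0594 (log2 difference 0.72, exact p = 0.1). HSPH1 over HSPA8 gave ratios of 0.226, 0.226 and 0.235 in Scramble and 0.210, 0.209 and 0.217 in DIS3-sh1 (log2 difference -0.11, exact p = 0.1). These ranges do not overlap either, though they lie close together. The adjusted p was 0.12 for each of these 5 ratios and 0.7 for HSPA1A over HSPA1B.

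All members together took 0.288% ± 0.0028 of library counts in Scramble and 0.0948% ± 0.0030 in DIS3-sh1 (SD, n = 3 each). Levels of different genes are compared per kb of merged GENCODE 29 exons. On that scale the Scramble order was HSPA8 (360.8 ± 5.41 CPM per kb), HSPA4 (79.1 ± 1.08), HSPH1 (47.7 ± 0.34), HSPA14 (23.9 ± 0.44), HSPA4L (20.3 ± 0.51), HSPA1B (18.2 ± 1.81), HSPA1A (4.08 ± 0.46) and HSPA2 (0.76 ± 0.10). In Scramble the ranges of HSPA1B (16.3 to 19.9 CPM per kb) and HSPA4L (19.8 to 20.8) overlapped, with HSPA4L higher in each library. This difference was not tested. In DIS3-sh1 the order was HSPA8 (93.8 ± 2.98), HSPA4 (38.3 ± 1.28), HSPA4L (13.6 ± 0.36), HSPH1 (11.5 ± 0.48), HSPA14 (10.2 ± 0.21), HSPA1B (1.19 ± 0.18), HSPA2 (0.36 ± 0.06) and HSPA1A (0.29 ± 0.08). There the ranges of HSPA2 and HSPA1A overlapped, with 0.288 to 0.407 against 0.231 to 0.379 CPM per kb, and HSPA2 was higher in each library.

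Shares within the pool differed between the groups, with no overlap of libraries for the genes named here and with no test. HSPA8 took 65.0% ± 0.57 of the members' summed CPM per kb in Scramble and 55.4% ± 0.56 in DIS3-sh1. HSPA4 went from 14.3% ± 0.12 to 22.6% ± 0.41, and HSPA4L from 3.67% ± 0.09 to 8.01% ± 0.03. HSPA1A and HSPA1B together went from 4.02% ± 0.39 to 0.875% ± 0.16. Shares depend on the length used: per kb of the longest coding transcript, a length chosen after seeing the data, HSPA8 took 74.8% and 67.2%, HSPA4 8.89% and 14.9%, HSPA4L 2.31% and 5.31%, HSPA1B 1.92% and 0.433%, and HSPA1A 0.43% and 0.104% in Scramble and DIS3-sh1. The direction of each of these 5 differences was as with merged exons, while HSPH1 then stood above HSPA4L in DIS3-sh1 (18.6 and 14.6 CPM per kb).

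**Figure D4:**
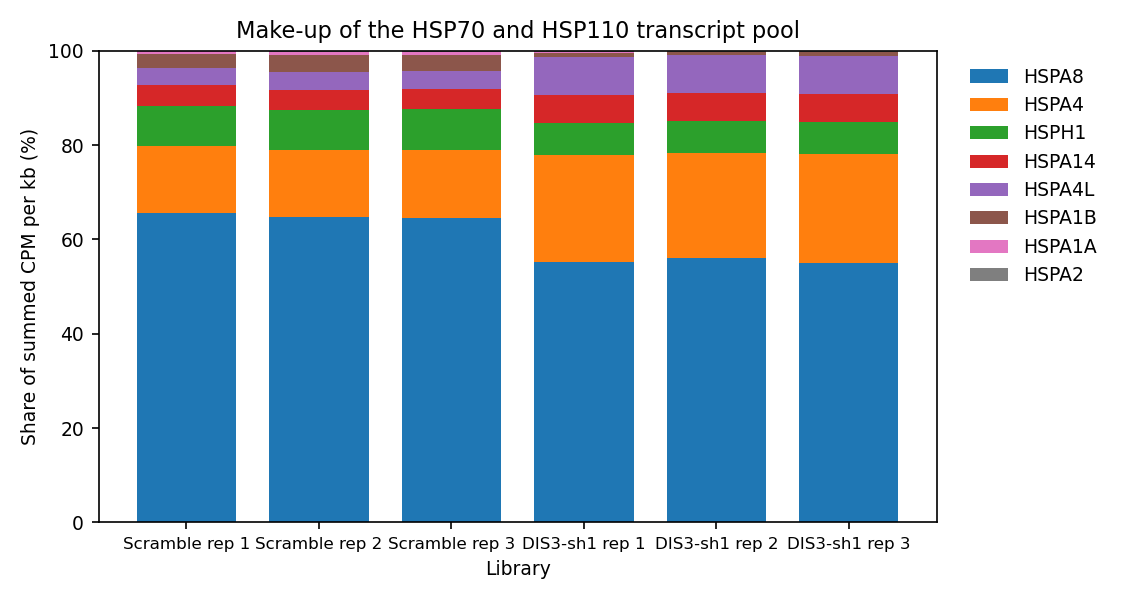
Share of each member in the members' summed CPM per kb of merged exons, in percent, for each of the 6 libraries. The HSPA8 segment shrinks from 65.0% to 55.4% on average and the HSPA4 and HSPA4L segments widen; HSPA1L (at 0 in 4 libraries) is not drawn.

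The co-chaperones that work with HSP70 were mostly lower as well. The counts for each list stand against 32.6% lower and 34.5% higher among all tested genes, whose median was 0.02. Of 10 J-domain genes of the cytosol and nucleus, 9 were tested, 7 were lower and 1 higher (median -0.70). DNAJA1, a type I HSP40, fell from 306.9 ± 1.93 to 93.9 ± 3.36 CPM (log2 fold change -1.71 ± 0.03). DNAJB1, the heat-inducible HSP40, fell from 124.8 ± 4.71 to 47.3 ± 3.15 CPM (-1.40 ± 0.05). DNAJB6, which suppresses aggregation, fell by 0.87, and DNAJC2, the partner of HSPA14, fell by 0.98 on the log2 scale. DNAJB5 was the 1 that rose (0.86 ± 0.11, from 7.23 to 13.2 CPM). DNAJB2 had means of 14.99 and 15.99 CPM and was not called (adjusted p = 0.312). DNAJC2, DNAJB5 and DNAJB2 were named after their values were seen.

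All 6 exchange factors of the BAG and HSPBP1 families fell (median -0.90). BAG3, which links HSP70 to autophagy and is itself heat-inducible, fell from 62.1 ± 1.19 to 27.8 ± 0.50 CPM (log2 fold change -1.16 ± 0.05). BAG2 fell by 1.01 and BAG1 by 0.94, whereas BAG4, named after its value was seen, fell by 0.27. All 10 adaptors and HSP90 genes fell too (median -0.84). HSP90AA1, the inducible HSP90, went from 1490 ± 7.19 to 707.1 ± 15.8 CPM (-1.08 ± 0.02), HSP90AB1, the constitutive one, fell by 0.89, and the HSP90 co-chaperone PTGES3 (p23) by 1.03. 

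HSP70 relatives outside the member list, most of them in other compartments, had a median nearer to 0. Of 7, 5 were tested, 4 were lower and 1 higher (median -0.14). HSPA9, the mitochondrial HSP70 (mortalin), fell from 502.4, 488.2 and 490.2 CPM to 289.4, 309.4 and 299.2 CPM (log2 fold change -0.72 ± 0.03), and HSPA5, the BiP chaperone of the endoplasmic reticulum, from 471.3 ± 7.98 to 350.2 ± 5.82 CPM (-0.43 ± 0.03). HSPA13 rose by a log2 fold change of 0.24 ± 0.05. HYOU1, the HSP110 of the endoplasmic reticulum, measured 213.3 and 200.8 CPM (-0.09 ± 0.03, adjusted p = 0.012), a call lost with upper-quartile scaling (0.847) and without Scramble replicate 1 (0.0533). The call of HSPA12A (-0.14, adjusted p = 0.0133) did not hold under upper-quartile scaling, where it was 0.289, or with Scramble replicate 2 left out, where it was 0.0879. HSPA6, the strictly inducible HSP70, had means of 0.32 ± 0.08 and 0.14 ± 0.17 CPM and was too low to test. HYOU1, HSPA12A and HSPA6 were named after their values were seen. Whether the members fell more than these relatives was not tested.

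Heat shock transcription factors and other heat shock genes went both ways. Of 11, 9 were tested, 4 were lower (44.4%) and 4 higher (median 0.15), not far from the 32.6% and 34.5% of all tested genes. HSPE1 and HSPD1, the mitochondrial HSP10 and HSP60, fell by 1.59 and 0.72 on the log2 scale, and UBB, a polyubiquitin gene, by 0.25. The small heat shock protein genes HSPB1 and HSPB8 rose by log2 fold changes of 0.86 ± 0.09 and 1.37 ± 0.19, the latter from 1.85 to 4.84 CPM. HSF1 went from 96.9 ± 2.79 to 86.7 ± 2.58 CPM (-0.16 ± 0.04, adjusted p = 0.000827), a call lost with upper-quartile scaling (0.0802). HSF2 rose by a log2 fold change of 0.27 ± 0.06. HSPB1, HSPB8, HSF1 and HSF2 were named after their values were seen.

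**Figure D5:**
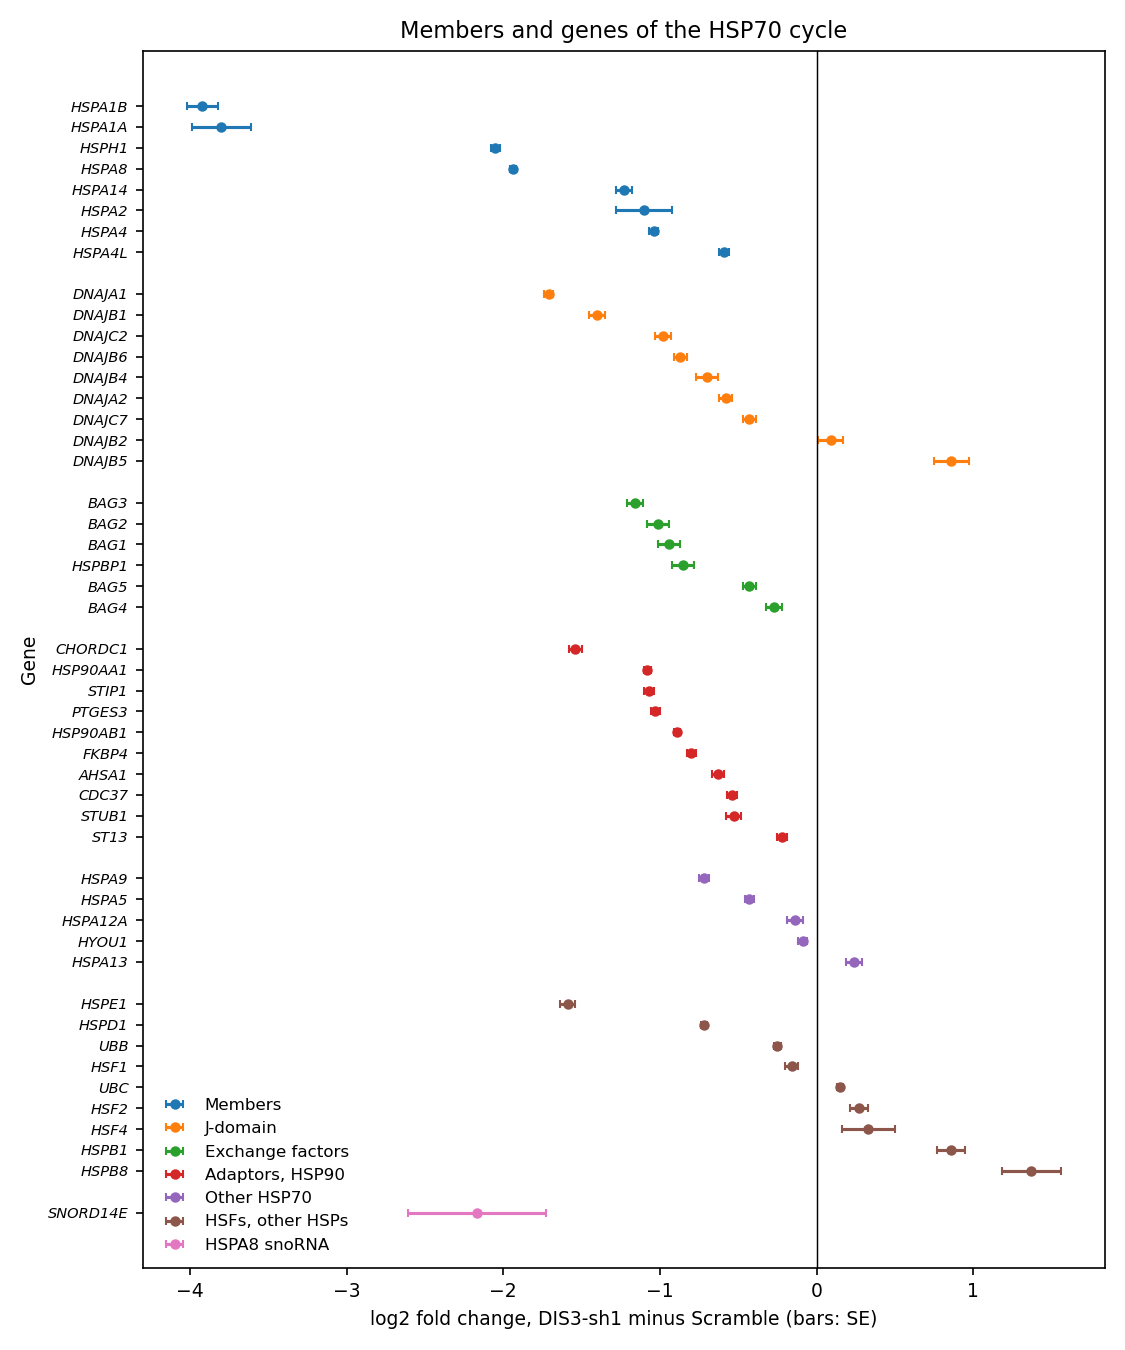
log2 fold changes (DIS3-sh1 minus Scramble) with SE bars for the 8 tested members and the 40 tested genes of the HSP70 cycle lists, coloured by list. Members reach from -3.92 (HSPA1B) to -0.59 (HSPA4L), and all exchange factors, adaptors and HSP90 genes lie left of 0, while HSPB1, HSPB8 and DNAJB5 lie right of it.

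The genes most like HSPA8 were sought among 10482 genes averaging 10 CPM or more, by the root mean square distance between profiles of log2(CPM + 1) over the 6 libraries, each set to its Scramble mean. They were EIF4G2, a translation initiation factor (distance 0.0632), UHRF1, a factor of maintenance DNA methylation (0.147), DNAJA1 (0.173), the linker histone gene H1-3 (0.188) and the nucleotide hydrolase gene DCTPP1 (0.200). HSPH1, left out as a member, had a distance of 0.0762 from HSPA8. For HSPH1 the nearest were EIF4G2 (0.0600), UHRF1 (0.217), DNAJA1 (0.246), H1-3 (0.257) and DCTPP1 (0.270). EIF4G2 went from 1250 ± 9.14 to 311 ± 6.54 CPM. With 2 groups of 3, such a distance reflects mainly the size of the difference between the groups.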

How the data were processed

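RNA of 6 libraries of 293T cells (3 Scramble, 3 DIS3-sh1) was analysed. The authors deposited expected counts for each gene, many of them fractional. The build was hg38, and the tools named are featureCounts 1.5.1, HISAT2 2.1.0, Bowtie2 2.3.5 and SAMtools, per the submitters' processing notes. Their settings, the annotation and the use of strand are not given in the sources used here, so overlapping and antisense genes are uncertain. 3 further columns matched no sample label and were not used, and planned DIS3-sh2 tests were not run. Whether these columns hold the DIS3-sh2 libraries cannot be told from their names. Symbols were found for 61757 of 61853 identifiers. After rounding, the test was that of edgeR 4.0.16 (R 4.3.3): TMM, the expression filter by group, group as the only term, robust quasi-likelihood F-test, two-sided, Benjamini-Hochberg over 19591 genes, threshold 0.05; SE is the absolute log2 fold change over the square root of F. DESeq2 1.42.0, other scalings, no filter, a replicate block, left-out libraries and summed copies were alternatives. Only the edgeR fit was tested on simulated data, with far fewer changed genes than were called here. Coordinates come from GENCODE 29 (GRCh38). Members and gene lists were chosen with earlier results of these data known. Named were all members, up to 3 genes per list with the smallest p, tested snoRNA genes of HSPA8, nearest tested neighbours by gene midpoint, and 5 genes nearest in profile to HSPA8 and to HSPH1; DIS3 and the cell markers were checks, and other list genes are marked as named after their values were seen.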

Additional observations from a re-analysis of the deposited data

How the results depend on the processing

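All 8 tested members kept their direction and their call under RLE and upper-quartile scaling, no expression filter, DESeq2, the replicate block and leaving out each of the 6 libraries (11 alternatives). Over these, the log2 fold change ranged from -4.00 to -3.80 for HSPA1B, -4.04 to -3.68 for HSPA1A, -2.08 to -1.97 for HSPH1, -1.96 to -1.86 for HSPA8, -1.25 to -1.15 for HSPA14, -1.21 to -0.96 for HSPA2, -1.07 to -0.96 for HSPA4 and -0.61 to -0.51 for HSPA4L. Same-numbered replicates of the 2 groups did not deviate together (correlations of 0.04, 0.01 and 0.01), so their numbers were not taken as pairs; with the replicate number as a block, 13166 genes and 8 members were called, against 13130 and 8. Upper-quartile scaling gave 7745 genes higher and 5471 lower and a median of 0.10 over all genes; HSF4 (0.41, adjusted p = 0.0348) was called with it and not otherwise, and was named after its values were seen. Under these alternatives 36 to 39 list genes were called, against 38 of the 40 tested in the main fit. The counts of 39 include list genes that the main fit did not test. Alternatives planned for DIS3-sh2 were not run. Depth limits HSPA1L, which could not be tested, and the DIS3-sh1 level of HSPA1A. The estimated fall of HSPA4 was smaller than 2-fold with upper-quartile scaling (log2 fold change -0.965). That of HSPA2 was smaller than 2-fold without Scramble replicate 1 (-0.992) and without DIS3-sh1 replicate 3 (-0.963).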

Other observations

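Tested genes next to the members, by gene midpoint, did not share one direction. LSM2, beside HSPA1L and HSPA1A on chromosome 6, had group means of 16.9 and 17.4 CPM and was not called (log2 fold change 0.04 ± 0.08, adjusted p = 0.662). B3GLCT, a glucosyltransferase gene at higher coordinates than HSPH1, was not called either (36.0 and 36.5 CPM, adjusted p = 0.725), while USPL1 on its other side fell by 0.73 on the log2 scale. GRAMD1B, a sterol transfer protein gene above HSPA8, rose from 17.3 to 26.6 CPM (0.62 ± 0.07), and FSTL4, above HSPA4, from 2.89 to 9.02 CPM (1.62 ± 0.17). Beside HSPA2, ZBTB1 fell by 0.48 and PLEKHG3 was not called (0.05 ± 0.06, adjusted p = 0.48). SUV39H2-DT, above HSPA14, went from 1.47 to 2.32 CPM (0.64 ± 0.23, adjusted p = 0.0158). ENSG00000282855 and RPL21P53, pseudogenes inside HSPA4L, and ENSG00000279691, inside HSPA4, were not called (adjusted p = 0.305, 0.452 and 0.443).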
